A study of Mus musculus with 8 samples.

Results

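NF-κB target genes other than chemokines were followed across the genotypes of a mouse model in which Wnt signalling is switched on in the gut epithelium. The members were a list of 34 genes described as targets of the canonical or non-canonical NF-κB pathway. All 34 were measured, out of 12393 genes with a named probe set, and each was read from its brightest probe set, the one with the highest mean over the 8 arrays. RNA came from intestinal epithelial cells of mice whose strain background is given as mixed C57BL/6 x 129Sv x FVB. There were 4 groups of 2 arrays each: wild type (WT), IkkαAA/AA (IKKa-AA), β-catc.a. (bCATca) and β-catc.a./IkkαAA/AA (double mutants). Mice of every group, WT included, received tamoxifen by gavage on 5 days, and the epithelium was taken 15 days after the start of dosing. In β-catc.a. mice tamoxifen stabilises β-catenin, the effector of Wnt signalling, in intestinal epithelial cells; the driver of the recombination was not given in the sources used here. The series set out to explore how IKKα acts on proliferation in this model. Values are log2 intensities, differences are those of group means on that scale, SE is their standard error in the fitted model, and every group has n = 2 arrays. A gene was called at a limma p adjusted over all 12393 genes below 0.05, and rose and fell are used of called genes.

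NF-κB is a family of dimeric transcription factors that IκB proteins hold inactive in the cytoplasm. In the canonical pathway, receptors of tumour necrosis factor, interleukin-1 and bacterial products activate the IKK complex, which marks IκB for destruction. In the non-canonical pathway, lymphotoxin β receptor, CD40 and related receptors act through NIK and IKKα on the p100 precursor. Released dimers switch on genes of inflammation and cell survival together with genes for their own inhibitors, which makes the mRNA of those inhibitors a common readout of the pathway. IKKα is one of the kinases of the complex, and in the AA form the serines needed for its activation are replaced. The AA allele is a germline change, so all cells of those mice carry it.

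The dimers bind κB sites, and promoters of the members were searched for the κB consensus of 10 bases on both strands. The consensus was GGGRNNYYCC, where R is A or G, Y is C or T and N is any base. RefSeq promoters (GRCm38.p6, 250 bases before to 50 after each start) were found for 30 members, all but Nfkbiz, Cd40, Plau and Vcam1. The motif was found in the promoters of 14 of the 30 members (46.7%), against 9.55% of 27025 genes with a promoter, and in 8.46% of all 32851 promoters. Sites that read the same on both strands matched on both. The 250 bases before the start are printed for Ier3, the member called below, at chr17:35821463-35821712 on the plus strand; for Nfkbia, the classical feedback target, at chr12:55492648-55492897 on the minus strand; for Tnip1, whose matches begin at 3 neighbouring bases and overlap, at chr11:54962941-54963190 on the minus strand; and for Ltb, which had the widest range of values over the arrays, at chr17:35194257-35194506 on the plus strand. Capitals mark bases in a match, and the sequences run 5′ to 3′ on the strand of the gene.
Ier3: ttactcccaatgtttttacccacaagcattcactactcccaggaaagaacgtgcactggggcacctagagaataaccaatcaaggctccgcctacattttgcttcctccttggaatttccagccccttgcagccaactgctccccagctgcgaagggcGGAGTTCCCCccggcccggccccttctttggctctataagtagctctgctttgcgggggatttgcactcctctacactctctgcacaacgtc
Nfkbia: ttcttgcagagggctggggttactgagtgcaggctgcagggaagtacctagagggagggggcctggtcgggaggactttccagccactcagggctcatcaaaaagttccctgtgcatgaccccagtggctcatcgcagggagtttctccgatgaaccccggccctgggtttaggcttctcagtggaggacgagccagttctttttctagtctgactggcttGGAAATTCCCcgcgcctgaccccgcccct
Tnip1: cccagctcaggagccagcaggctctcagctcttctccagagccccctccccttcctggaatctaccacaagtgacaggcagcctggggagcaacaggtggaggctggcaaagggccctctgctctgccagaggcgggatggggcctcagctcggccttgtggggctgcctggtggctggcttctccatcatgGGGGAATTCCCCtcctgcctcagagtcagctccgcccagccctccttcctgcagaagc
Ltb: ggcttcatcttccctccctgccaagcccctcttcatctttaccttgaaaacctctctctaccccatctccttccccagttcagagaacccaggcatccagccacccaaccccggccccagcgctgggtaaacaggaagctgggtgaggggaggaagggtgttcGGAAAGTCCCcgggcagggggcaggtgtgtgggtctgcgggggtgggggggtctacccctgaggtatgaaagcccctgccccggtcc

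Shorter windows of 30 bases show a match of some other members whose values are given below. They lie at chr10:19015403-19015432 (minus strand) for Tnfaip3, at chr7:19822734-19822763 (minus strand) for Bcl3, where the match begins just after the start, at chr11:23771042-23771071 (minus strand) for Rel, at chr17:13007746-13007775 (plus strand) for Sod2 and at chr5:30013060-30013089 (plus strand) for Il6.
Tnfaip3: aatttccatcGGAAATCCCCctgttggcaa
Bcl3: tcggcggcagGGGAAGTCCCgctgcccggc
Rel: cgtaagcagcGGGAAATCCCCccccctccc
Sod2: cggggcggacGGGGTTCCCCgaggcggggc
Il6: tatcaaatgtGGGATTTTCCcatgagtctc
Tnfaip3 has another match further upstream, and Bcl2l1, Csf1, Madcam1, Nfkbie and Tnfaip2 have matches that are not printed. A match is a description of letters and was not tested as a binding site. In bCATca against WT the median was -0.10 (from -0.67 to 0.96) over the 14 with a match and 0.00 (from -0.42 to 1.14) over the 16 without one. No factor binding was measured.

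Some facts of the series bear on these values. The 8 arrays had median intensities from 50.9 to 53.8. All 10 epithelial markers read above background on every array, with Epcam between 12.48 and 12.65; limma called 1 of them, Krt18, in bCATca against WT (1.17 higher, adjusted p = 0.00304). The WT arrays differed in sex markers: Xist read 9.18 on WT replicate 1 and 4.01 on WT replicate 2, and the Y-linked Eif2s3y read 2.02 and 7.56, while the other 6 arrays had low Xist and high Eif2s3y like WT replicate 2. Transcripts that should be absent served as guides to background, chosen after their values were seen. Xist read between 3.56 and 4.03 on the 7 arrays where it was low, and 3 Y-linked genes read between 2.02 and 2.56 on WT replicate 1. The upper guide of 4.03 is used below, with the count under the lower guide of 2.56 beside it. The replicates of IKKa-AA stood further apart than those of other groups, with 392 genes at least 2-fold apart against 83 to 168 in the other groups. Markers of T cells, which lie within the gut epithelium, differed between the groups: the summed intensity of 13 measured T cell markers ranged from 8966 to 12209 in WT, 2719 to 10076 in IKKa-AA, 5650 to 7622 in bCATca and 945 to 1287 in double mutants. Fewer cells of a type and less RNA per cell cannot be told apart in such samples. The labels do not state whether replicates are separate animals. By their sex markers, the WT arrays came from different mice. Sex markers do not tell replicates apart outside WT, and whether those are separate animals was not tested. The largest log2 gap between replicates was 5.17 in IKKa-AA (Cyp2c29), 4.08 in bCATca (Defa31) and 3.95 in double mutants (Cela2a). Median gaps over all genes in these groups were 0.20, 0.19 and 0.18. The p-values reflect only how far these samples spread, and how much of that spread is technical outside WT was not tested.

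Few of the 34 genes passed a test between genotypes. In bCATca against WT 1 of 34 rose and none fell (2.94%), where 9.29% of all genes were called (5.74% higher and 3.55% lower). A count this small does not tell the members' share from the background. In the other comparisons limma called none: 0 of 34 in IKKa-AA against WT (0.00807% of all genes), 0 in double mutants against bCATca (1.21%), 0 in double mutants against IKKa-AA (0.0565%) and 0 in the interaction (0.0888%), the β-catenin difference among AA mice less the one among mice with wild-type IKKα. An F test for any difference among the 4 groups called 0 of 34 as well, against 4.12% of all genes. At an unadjusted p under 0.05, limma gave 5 of 34 members in bCATca against WT (29.4% of all genes), 2 in IKKa-AA against WT (11.7%), 3 in double mutants against bCATca (14.8%), 1 in double mutants against IKKa-AA (6.93%), 2 in the interaction (15.7%) and 7 in the F test (22.7%).

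Medians over the members stayed near 0 in each comparison. They were -0.04 in bCATca against WT, 0.06 in IKKa-AA against WT, -0.00 in double mutants against bCATca and 0.01 in double mutants against IKKa-AA, beside 0.01, -0.00, 0.00 and 0.03 over all genes. A missed threshold does not show equal levels, and the 95% intervals of the differences give the range of sizes. In each of these 4 comparisons the interval lay inside a 2-fold change either way for 29 of 34 members (85.3%), against 79.7% of all genes in bCATca against WT, 89.9% in IKKa-AA against WT, 87.9% in double mutants against bCATca and 91.9% in double mutants against IKKa-AA. The members with wider intervals or larger differences were Bcl3, Nfkbiz, Ier3, Ltb and Icam1 in the first comparison, and Tnip1, Tnfsf13b and Csf2 joined them in others. For the interaction the count was 23 of 34, against 64.4% of all genes. These counts include 7 members near background; over the 27 others, the intervals lay inside a 2-fold change for 22 (81.5%) in each of the 4 comparisons and for 16 in the interaction.

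With 2 arrays a group, many genes have groups that do not overlap, and the members were near or below that background. In bCATca against WT both arrays were higher for 8 of 34 members (33.5% of all genes) and both lower for 6 (29.7%). In IKKa-AA against WT the counts were 8 higher (21.2%) and 7 lower (24.7%). In double mutants against bCATca they were 7 higher (22.6%) and 5 lower (24.2%), and in double mutants against IKKa-AA 7 higher (19.9%) and 4 lower (13.8%). Bcl3 was higher without overlap in all 4 comparisons, and Tnip1 lower in bCATca against WT and higher in the other 3.

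**Figure D1:**
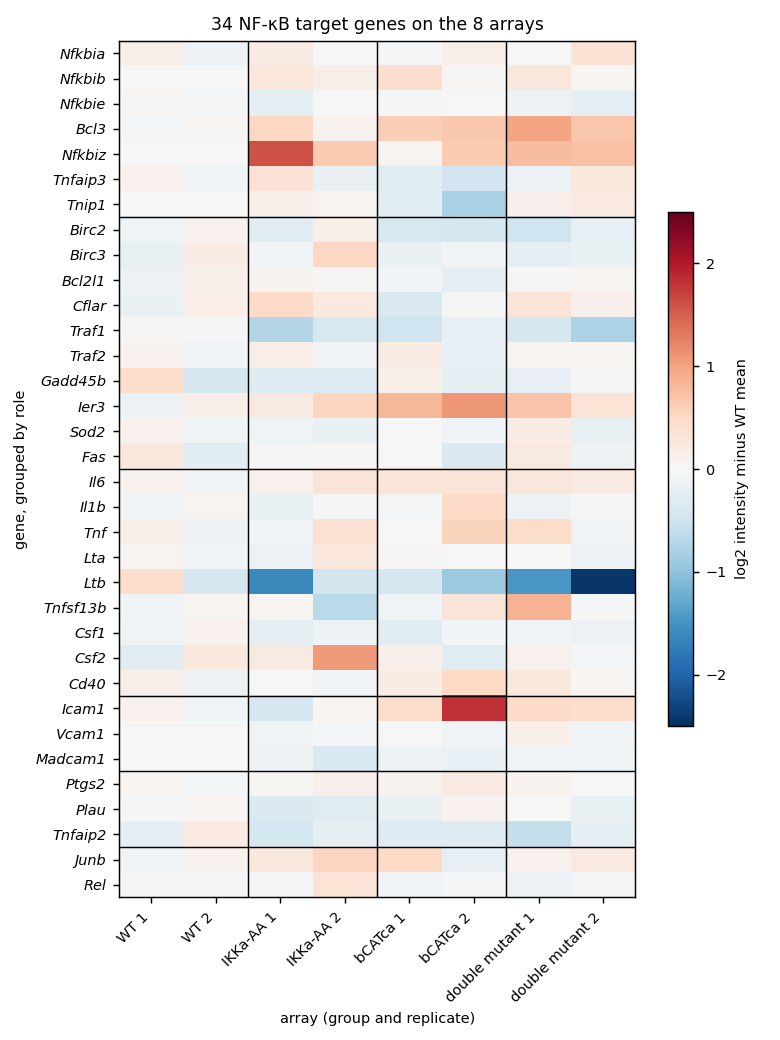
Log2 intensity of each of the 34 genes (rows, grouped by role) on each of the 8 arrays (columns), as the difference from the gene's WT mean. Most cells are pale; among the strongest colours are Ltb on IKKa-AA replicate 1 and both double mutant arrays, Icam1 on bCATca replicate 2 and Nfkbiz on IKKa-AA replicate 1.

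Among the 7 feedback inhibitors and IκB proteins, limma called none in any comparison. At an unadjusted p under 0.05 there were 2 in bCATca against WT (Bcl3 and Tnip1) and 1 in each of the others. Nfkbia, which encodes IκBα, read 11.42 and 11.12 (WT), 11.47 and 11.28 (IKKa-AA), 11.21 and 11.39 (bCATca) and 11.26 and 11.62 (double mutants). By this probe set the groups overlapped throughout, and the gap between the double mutant replicates exceeded every difference between group means. In bCATca against WT the difference was 0.03 (SE 0.18, 95% interval -0.38 to 0.45, adjusted p = 0.921), and in double mutants against bCATca it was 0.14 (95% interval -0.27 to 0.55, adjusted p = 0.757). Its other 3 probe sets gave 0.43, 0.24 and -0.11 in bCATca against WT, and 0.50, 0.08 and -0.10 in IKKa-AA against WT, none called. On the first of these, both WT arrays (9.66 and 9.44) lay below all other arrays, which read from 9.92 to 10.38. Nfkbib (IκBβ) read between 8.08 and 8.49 on the 8 arrays, and Nfkbie (IκBε) between 3.50 and 3.75, below the upper guide to background.

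Tnfaip3 encodes A20, a ubiquitin-editing enzyme that stops signalling to IKK, and Tnip1 encodes a partner of A20. Tnfaip3 read 5.42 and 5.22 (WT), 5.67 and 5.13 (IKKa-AA), 5.01 and 4.83 (bCATca) and 5.18 and 5.59 (double mutants). Both bCATca arrays were lower than all others, but the difference from WT of -0.40 was not called (SE 0.22, adjusted p = 0.259). Tnip1 read 9.31 and 9.33 (WT), 9.44 and 9.39 (IKKa-AA), 9.04 and 8.52 (bCATca) and 9.46 and 9.56 (double mutants). The bCATca arrays were again the lowest of the 8, and they differed from each other by 0.52. Against WT the difference was -0.54 (SE 0.18, adjusted p = 0.0911), and double mutants stood above bCATca by 0.73 (SE 0.18, 95% interval 0.32 to 1.14, adjusted p = 0.104). These comparisons share the bCATca arrays. With bCATca replicate 1 left out, which leaves only the bCATca array further from WT, the difference of Tnip1 from WT was -0.80.

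The atypical IκB proteins Bcl3 and IκBζ (Nfkbiz) act in the nucleus as partners of p50 and p52 dimers. Bcl3 read 7.86 and 7.90 (WT), 8.40 and 7.96 (IKKa-AA), 8.49 and 8.55 (bCATca) and 8.87 and 8.58 (double mutants). All 4 arrays with stabilised β-catenin were above all 4 arrays without it. The difference was 0.65 (SE 0.18, 95% interval 0.23 to 1.06, adjusted p = 0.0595) in bCATca against WT and 0.54 (SE 0.18, adjusted p = 0.576) in double mutants against IKKa-AA, on arrays that the comparisons do not share. Neither was called; without either IKKa-AA array the first was (adjusted p = 0.0286). Nfkbiz read 8.65 and 8.64 (WT), 10.25 and 9.29 (IKKa-AA), 8.71 and 9.31 (bCATca) and 9.41 and 9.39 (double mutants). WT was the lowest group, and IKKa-AA replicate 1 stood apart from the other 7 arrays. In IKKa-AA against WT the difference was 1.12 (SE 0.30, 95% interval 0.43 to 1.82, adjusted p = 0.306), and its second probe set gave 1.32. Without IKKa-AA replicate 2, which leaves only the IKKa-AA array further from WT, the difference of Nfkbiz from WT was 1.60.

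**Figure D2:**
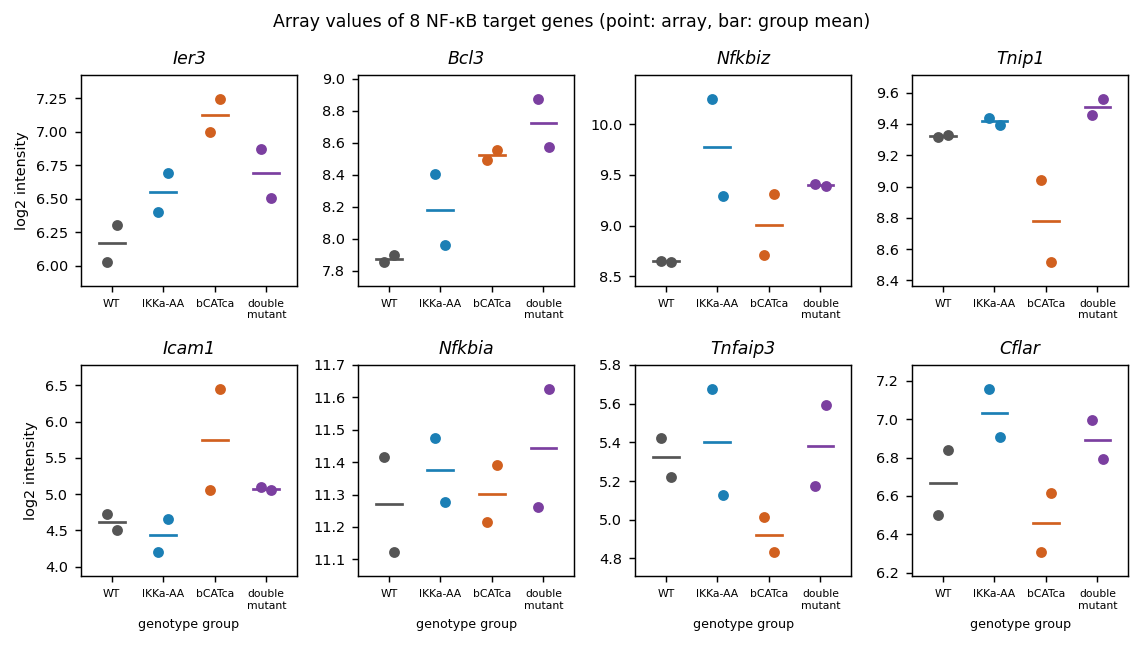
Log2 intensity of 8 of the genes on each array (points, replicate 1 left of replicate 2) by genotype group, with the group mean as a bar; the vertical scale differs between panels. Ier3 is highest in bCATca (7.0 and 7.24), Tnip1 and Tnfaip3 are lowest there, Bcl3 is higher on all 4 arrays with stabilised β-catenin, and the groups overlap for Nfkbia.

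Ier3 was the member that rose, and it belongs to the 10 genes of survival and signalling. It encodes a short-lived protein that NF-κB and stress signals induce and that affects cell survival. It read 6.03 and 6.30 (WT), 6.40 and 6.69 (IKKa-AA), 7.0 and 7.24 (bCATca) and 6.87 and 6.50 (double mutants). The bCATca arrays were the highest of the 8 and the WT arrays the lowest. Ier3 rose by 0.96 in bCATca against WT (SE 0.19, 95% interval 0.52 to 1.39, 1.94-fold, adjusted p = 0.0222). In double mutants against bCATca the difference was -0.43 (SE 0.19, adjusted p = 0.346), in double mutants against IKKa-AA 0.14 (adjusted p = 0.914), and the interaction was -0.81 (SE 0.27, adjusted p = 0.224). The call ended without WT replicate 1 (adjusted p = 0.122), WT replicate 2 (0.0784) or bCATca replicate 2 (0.138), where the difference was 0.82, 1.09 and 0.83. Immediate-early and stress genes that respond to cell handling were read from 12 genes such as Fos, Egr1 and Atf3: limma called none in bCATca against WT, and their median difference was -0.41 (1 of 12 at an unadjusted p under 0.05). Of these, Egr1 and Ier2 had the signs of Ier3, with 0.97 and 0.26 in bCATca against WT (adjusted p = 0.214 and 0.259). In double mutants against bCATca they gave -1.22 and -0.44 (adjusted p = 0.288 and 0.204). Over the 12 in that comparison, 10 were above 0 and 2 below, with a median of 0.27. In IKKa-AA against WT, where Nfkbiz had the highest difference of the members, limma called none of the 12. At an unadjusted p under 0.05 there were 2 of 12, both higher. Of the 12, 5 were above 0, among them Atf3 (1.26) and Fosb (0.81), and 7 below, with a median of -0.06. The part of cell handling in the values of Ier3 and Nfkbiz was not tested.

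The other 9 survival and signalling genes were not called in any comparison by their brightest probe set. Birc2 and Birc3 encode the inhibitor of apoptosis proteins cIAP1 and cIAP2, which build ubiquitin chains at the tumour necrosis factor receptor. Birc2 differed by -0.42 (SE 0.18, adjusted p = 0.165) in bCATca against WT, with 6.99 and 6.96 in bCATca below 7.29 and 7.50 in WT. Birc3 read between 7.99 and 8.75. Bcl2l1, for the survival protein Bcl-xL, read between 7.72 and 8.09, with a difference of -0.15 in bCATca against WT. Its dimmer probe sets gave -0.46, -0.40 and -0.16 there, none called. Sod2, the mitochondrial superoxide dismutase, read between 10.08 and 10.45. Traf2, an adaptor of tumour necrosis factor receptors, differed by -0.01 in bCATca against WT (adjusted p = 0.975). Fas, the death receptor gene, ranged from 6.42 to 7.03. Gadd45b, a stress-induced gene, read 7.48 and 6.62 in WT, a gap wider than any of its differences between groups.

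Cflar encodes c-FLIP, which blocks death receptor signalling at caspase-8, and its probe sets differed. The brightest read 6.50 and 6.84 (WT), 7.16 and 6.91 (IKKa-AA), 6.31 and 6.61 (bCATca) and 7.0 and 6.79 (double mutants), with a difference of -0.21 in bCATca against WT (SE 0.18, adjusted p = 0.483). With every probe set tested on its own and p adjusted over all 22690, another 2 of its 4 probe sets were called in that comparison, at -0.84 (adjusted p = 0.0414) and -0.75 (adjusted p = 0.0426). All 4 differed in the same direction there, but in IKKa-AA against WT the brightest gave 0.36 and the others -0.05, -0.07 and -0.05. Which transcripts of Cflar each probe set reads was not determined here. In the same fit the dimmer of the 2 probe sets of Tnfaip2, a gene induced by tumour necrosis factor, was called higher at 0.57 (adjusted p = 0.0429), at levels from 2.59 to 3.27 that lie under the upper guide to background, while the brighter one gave -0.32.

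**Figure D3:**
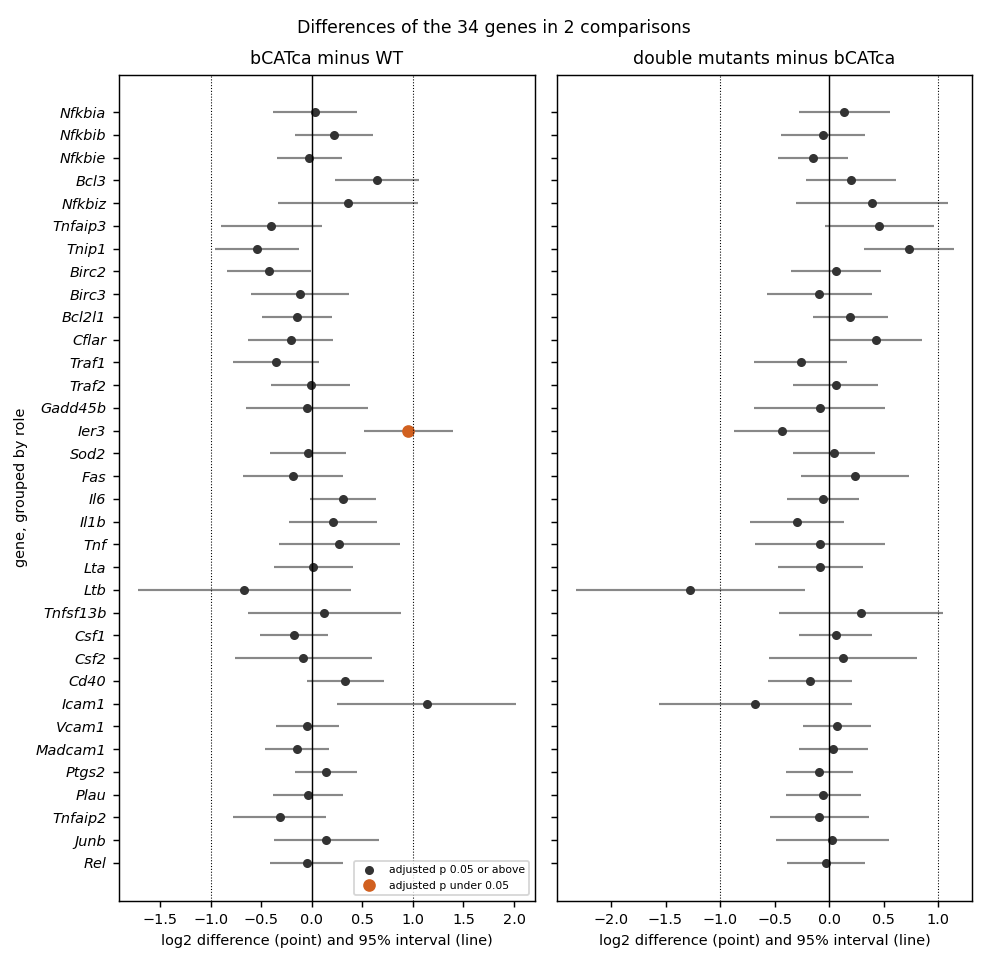
Differences of log2 group means (points) and their 95% intervals (lines) for the 34 genes in bCATca against WT (left) and in double mutants against bCATca (right); dotted lines mark a 2-fold change. Ier3, in orange on the left at 0.96, is the single called gene, and the intervals of 29 of 34 genes lie between the dotted lines in each panel.

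Limma called none of the 9 cytokines, ligands and receptors in any comparison, and Ltb in double mutants against bCATca was the single one at an unadjusted p under 0.05. Ltb, which encodes the membrane part of the lymphotoxin that triggers the non-canonical pathway, had the widest range. It read 6.84 and 5.98 (WT), 4.80 and 5.94 (IKKa-AA), 5.98 and 5.51 (bCATca) and 4.96 and 3.98 (double mutants). Double mutant arrays were below both WT and both bCATca arrays, and IKKa-AA replicate 1 lay below the double mutant with the higher value. Differences were -0.67 in bCATca against WT (SE 0.46, adjusted p = 0.361), -1.04 in IKKa-AA against WT (adjusted p = 0.429) and -1.27 in double mutants against bCATca (95% interval -2.33 to -0.22, adjusted p = 0.252). Lymphocytes express Ltb, and most T cell markers were also lower in double mutants than in bCATca, though not Cd4 (0.17) and Cd2 (0.02). Cd3e read 8.89 and 8.44 (WT), 6.71 and 8.65 (IKKa-AA), 8.0 and 7.35 (bCATca) and 5.69 and 6.64 (double mutants), and Cd8a read 4.27 and 4.18 in double mutants against 8.65 and 8.09 in WT. Within double mutants the array with the lower Ltb had the higher Cd3e, Cd3d and Cd3g. The other T cell markers were lower on that array, among them Gzma (8.42 against 9.01) and Ccl5 (5.89 against 6.85). Summed intensity of the T cell markers was lower there too (945 against 1287). Over the 13 measured markers, of which Cd2 was near background on every array, the median difference was -2.31 in double mutants against bCATca, with 1 called lower (Ccl5) and 9 at an unadjusted p under 0.05. The 7 measured markers of B and plasma cells had a summed intensity of 1533 to 1957 in WT, 322 to 3864 in IKKa-AA, 3003 to 3981 in bCATca and 165 on both double mutant arrays. That sum was higher in bCATca than in WT, while Ltb was lower in bCATca than in WT. Igha, the brightest of the 7, weighs most in the sum. The median of the 7, as log2 minus the WT mean, was 0.32 and 0.60 on the bCATca arrays. On the double mutant arrays that median was -0.08 and -0.05. In double mutants against bCATca, 2 of the 7 (Ms4a1 and Igha) fell. The part of these cells in the values of Ltb was not tested.

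**Figure D4:**
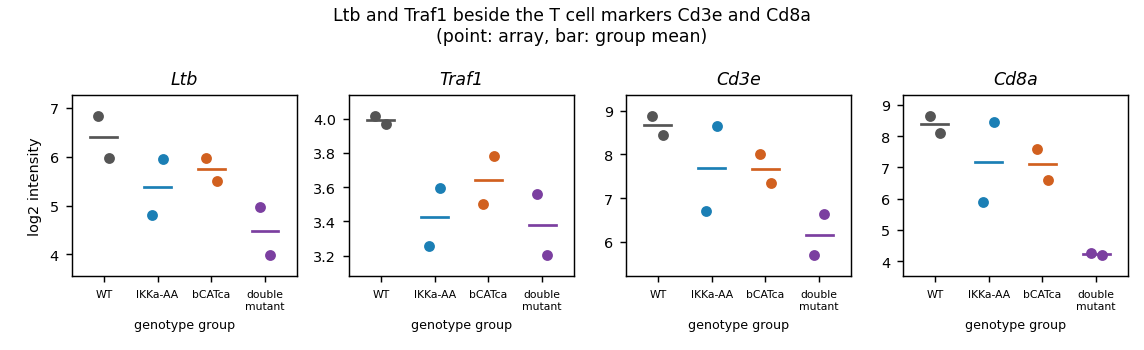
Log2 intensity of Ltb and Traf1 and of the T cell markers Cd3e and Cd8a on each array (points) by genotype group, with group means as bars; the vertical scale differs between panels. Ltb, Cd3e and Cd8a have their lowest group mean in double mutants, and the IKKa-AA replicates lie apart for all 3, with replicate 1 the lower.

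The pro-inflammatory cytokine genes stayed low. Il6 read between 1.90 and 2.32 on the 8 arrays and Lta, for lymphotoxin α, between 3.39 and 3.81, Il6 under both guides to background and Lta under the upper one. Tnf, for tumour necrosis factor, read 5.22 and 4.96 (WT), 5.03 and 5.47 (IKKa-AA), 5.09 and 5.64 (bCATca) and 5.55 and 5.01 (double mutants), so that replicates spanned the differences between groups. Il1b, for interleukin-1β, ranged from 4.46 to 5.12, with the highest value on bCATca replicate 2. Tnfsf13b encodes BAFF, a B cell survival factor. It was 0.72 higher in double mutants than in IKKa-AA without passing (SE 0.33, adjusted p = 0.754), and double mutant replicate 1 alone stood at 8.03 against 7.49 or less elsewhere. Csf2, for the growth factor GM-CSF, read 5.87 on IKKa-AA replicate 2 and 5.06 or less on the others. Csf1, the macrophage growth factor, read between 4.68 and 5.06, and Cd40, the receptor of the non-canonical pathway, between 4.61 and 5.23. The second probe set of Cd40 differed in the opposite direction in bCATca against WT (-0.45, against 0.33), and so did the other 3 probe sets of Csf1.

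Of the 3 adhesion genes, none called by limma (1 at an unadjusted p under 0.05 in bCATca against WT), Icam1, a ligand for leukocyte integrins, had the larger differences. It read 4.73 and 4.50 (WT), 4.20 and 4.66 (IKKa-AA), 5.05 and 6.45 (bCATca) and 5.10 and 5.05 (double mutants). All 4 arrays with stabilised β-catenin were above all 4 without it, and bCATca replicate 2 stood 1.39 above its own replicate. The difference was 1.14 in bCATca against WT (SE 0.39, 95% interval 0.25 to 2.02, adjusted p = 0.0955) and 0.64 in double mutants against IKKa-AA (SE 0.39, adjusted p = 0.827). Without bCATca replicate 1, which leaves only the bCATca array further from WT, the difference of Icam1 from WT was 1.83. Vcam1 and Madcam1, adhesion molecules of stroma and gut endothelium, read from 4.21 to 4.46 and from 3.39 to 3.78. Of 10 endothelial markers 1 rose in bCATca against WT (Vwf, 1.03, adjusted p = 0.0218), and 4, Vwf among them, were near background on every array. In that comparison 2 of the 10 were above 0 and 8 below, with a median of -0.02.

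The remaining members were effectors and transcription factors. Ptgs2, for the prostaglandin synthase COX-2, read between 2.17 and 2.43, under both guides. Plau, for urokinase, read 3.64 and 3.73 (WT), 3.33 and 3.38 (IKKa-AA), 3.52 and 3.78 (bCATca) and 3.70 and 3.49 (double mutants), all under the upper guide. The IKKa-AA arrays were the lowest of the 8, and the difference from WT of -0.33 was not called (SE 0.15, adjusted p = 0.434). Tnfaip2 ranged from 4.10 to 4.93. Junb, a subunit of the AP-1 factor, read 7.82 and 8.0 (WT), 8.21 and 8.46 (IKKa-AA), 8.40 and 7.71 (bCATca) and 8.02 and 8.16 (double mutants). IKKa-AA was above WT on both arrays by a mean of 0.42, which was not called (adjusted p = 0.494). Rel, for the NF-κB subunit c-Rel, read between 4.02 and 4.50. Traf1, an adaptor abundant in lymphocytes, read 4.02 and 3.97 in WT and between 3.20 and 3.78 on the other 6 arrays, and its difference in IKKa-AA against WT was -0.57 (SE 0.19, adjusted p = 0.350). Its levels lay under the upper guide to background. Altogether 7 members had a mean at or under that guide (Nfkbie, Traf1, Il6, Lta, Madcam1, Ptgs2 and Plau), and 2 of them (Il6 and Ptgs2) at or under the lower one. The size of a change is uncertain in these members.

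The effect of stabilised β-catenin was measured on separate arrays in mice with and without the AA allele. Of the 34 members 21 differed in the same direction in both, 9 higher and 12 lower (61.8%, against 56.4% of all genes). Bcl3 (0.65 and 0.54) and Icam1 (1.14 and 0.64) were higher in both. Ltb had the lowest difference of the 34 in both (-0.67 and -0.90), and Ier3 stood at 0.96 without the allele and 0.14 with it. The effect of the AA allele had the same direction with and without stabilised β-catenin for 19 of 34 (55.9%, against 43.2% of all genes). Ltb was among them with -1.04 and -1.27, and so was the brightest probe set of Cflar with 0.36 and 0.43, though not its other 3, which were slightly below 0 without stabilised β-catenin and above 0 with it. No interaction was called for any member, and the smallest adjusted p was that of Ier3 (0.224).

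**Figure D5:**
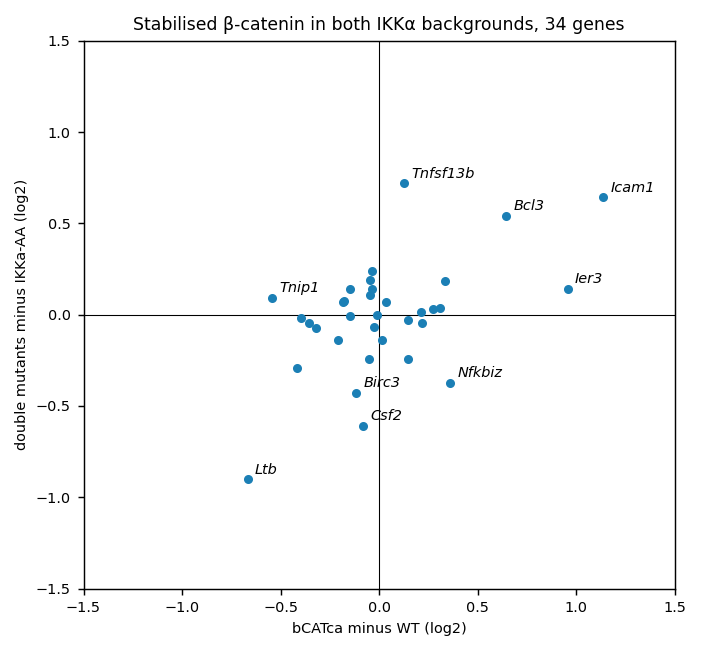
Difference of log2 group means of the 34 genes for stabilised β-catenin in mice with normal IKKα (horizontal) and in AA mice (vertical); the axes share no arrays. Bcl3 and Icam1 lie to the upper right and Ltb to the lower left, while Ier3 is high on the horizontal axis (0.96) and near 0 on the vertical one (0.14).

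Genes that carry the signal to NF-κB were read beside its targets, from a list of 30 of which 25 were measured. In bCATca against WT 3 of 25 rose (12.0%, against 5.74% of all genes) and none fell (3.55% of all genes), and 5 of 25 had an unadjusted p under 0.05 (29.4% of all genes). Tlr2, a receptor for bacterial lipoproteins, read 4.39 and 4.45 (WT), 5.15 and 4.61 (IKKa-AA), 6.03 and 6.39 (bCATca) and 5.28 and 5.52 (double mutants). It rose by 1.79 in bCATca (SE 0.21, adjusted p = 0.00284), where every array was above all other groups, and it kept the call with each array left out in turn. The F test over the groups called it too (adjusted p = 0.0132), but not without WT replicate 1 (0.0691), WT replicate 2 (0.0666) or bCATca replicate 2 (0.0840). Of 12 myeloid markers, whose cells also express Tlr2, 1 rose in the same comparison (Cd14, 1.32, adjusted p = 0.00507) and 5 were higher at an unadjusted p under 0.05, among them C1qb (1.07, adjusted p = 0.0680) and C1qa (0.76, adjusted p = 0.0511). Of the 12, 6 were above 0 and 6 below, with a median of 0.06. Csf1r and Adgre1 differed by -0.07 and -0.10, and Tyrobp and Fcer1g by -0.56 and -0.71 (not called). The summed intensity of the 12 was 1198 to 1308 in WT and 1243 to 1295 in bCATca. Bright markers such as Lyz2 weigh most in that sum. The part of myeloid cells in the rise of Tlr2 was not tested. Irak1, a kinase downstream of Toll-like and interleukin-1 receptors, rose by 0.76 (SE 0.13, adjusted p = 0.0147), and Ikbkb, which encodes IKKβ, by 0.66 (SE 0.15, adjusted p = 0.0350). The mean of the 4 probe sets of Ikbkb gave 0.21 and no call (adjusted p = 0.380). The calls of Irak1 and Ikbkb both ended without WT replicate 1 (adjusted p = 0.0953 and 0.109), without WT replicate 2 (0.0684 and 0.197) or without bCATca replicate 2 (0.0955 and 0.193), and that of Ikbkb also without either double mutant array (0.0608). Rela, for the subunit p65, was 0.49 higher without passing (adjusted p = 0.0560), and Nfkb2 and Relb, of the non-canonical pathway, differed by 0.10 and 0.05; these 3 genes did not pass and were named after their values were seen. None of the 25 was called in the other 4 comparisons by limma. At an unadjusted p under 0.05 the counts there were 4 in IKKa-AA against WT (11.7% of all genes), 5 in double mutants against bCATca (14.8%), 4 in double mutants against IKKa-AA (6.93%) and 3 in the interaction (15.7%).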

How the data were processed

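Each array had 1 deposited intensity per probe set. RMA and affy are named in the submitters' processing notes, with no versions. Since RMA yields log2 values, the linear scale is read from the values alone, and log2 of each deposited intensity was taken with no offset. Of 22690 probe sets, 20380 had 1 gene symbol, 691 several and 1555 none in the platform annotation, and 64 were controls. Symbols were updated through Entrez IDs. The probe set with the highest mean stood for each of 12393 genes. limma 3.58.1 (R 4.3.3; lmFit and eBayes, 1 mean per group, 8 arrays) gave 4 residual and 4.28 prior degrees of freedom, and p-values were Benjamini-Hochberg adjusted over all genes. The fit was checked on simulated data. The members and lists were chosen with earlier results of these data known. By rule, every member was named, with array values for those that passed and for the smallest F p of each role, and pathway genes that passed, at most 4 per comparison by smallest p; other array values, Rela, Nfkb2, Relb and single marker genes were added after values were seen. Alternatives covered normalisation, probe set choice, dim genes, an offset, eBayes settings, a replicate block, each array left out, and the 4 arrays compared. Arrays carry no read depth, and their number limits the precision. Python 3.11.15, pandas 2.3.3, numpy 2.4.6 and matplotlib 3.10.9 were used.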

Additional observations from a re-analysis of the deposited data

How the results depend on the processing

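The count of called members was 1 in bCATca against WT and 0 in the other comparisons and the F test. Quantile normalisation, cyclic loess, the mean of all probe sets, leaving out dim genes, adding 16 to the intensity, and eBayes with trend and robust changed none of these counts. The count in bCATca against WT was 2 with only the 4 arrays compared (Ier3 and Bcl3) and 3 with every probe set tested on its own (Cflar, Ier3 and Tnfaip2), an alternative chosen after seeing the data. With each array left out in turn it ranged from 0 to 3 in bCATca against WT, from 0 to 1 in IKKa-AA against WT, and from 0 to 4 in the F test, and it was 0 in every such fit of the remaining comparisons. In the F test it was 2 without IKKa-AA replicate 1 (Bcl3 and Ltb), 4 without IKKa-AA replicate 2 (Bcl3, Nfkbiz, Ier3 and Ltb) and 1 without bCATca replicate 1 (Icam1). The labels' replicate numbers were not shown to pair the samples: deviations of same-numbered samples correlated between -0.448 and 0.15. With the replicate number as a block the count stayed at 1 in bCATca against WT (Ier3, adjusted p = 0.0407) and at 0 elsewhere, while the calls over all genes went from 1151 to 701; Ikbkb was not called (adjusted p = 0.0622). Ikbkb also lost its call with quantile normalisation (adjusted p = 0.0574), cyclic loess (0.0696) and only the 4 arrays compared (0.0505). With 2 arrays per group, small differences are not resolved, and members near background limit what a difference shows. A fit with an array left out leaves 1 array in that group, so a call gained there says little on its own.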
